A study of Mus musculus with 6 samples.

Results

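Pulmonary neuroendocrine cells are rare, innervated epithelial cells of the conducting airway that sense the airway content and release peptides and amines. They arise from the airway epithelium under the control of proneural transcription factors, and Notch signaling between neighboring cells limits their number. They store calcitonin gene-related peptide (CGRP) and other peptides in granules built around the chromogranins. The 9 genes described here are the CGRP genes *Calca* and *Calcb*, the transcription factor genes *Atoh1*, *Neurod1* and *Insm1*, the granule genes *Chga* and *Chgb*, the vesicle gene *Syp* and the ubiquitin hydrolase gene *Uchl1*. All 9 had a locus of their own among the 24402 loci of the table. They were chosen with these data in view, and *Calca*, *Calcb* and *Atoh1* were picked because of the values given below, so these values are descriptions and carry no test.

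RNA came from whole lungs at 12.5 *dpc* of C57BL/6 embryos, with 3 libraries from wild-type littermates (control) and 3 from Yap-flox/flox; Shh-Cre/+ embryos (*Yap* mutants). Cre made from the *Shh* locus deletes the floxed part of *Yap* in the lung epithelium and leaves the mesenchyme intact, and the Cre insertion also takes away 1 copy of *Shh*. The controls are labelled wild type, so loss of *Yap* and loss of this copy of *Shh* cannot be told apart. The authors' table gives 1 pooled value per genotype in FPKM, fragment counts scaled to transcript length and library size. These values show neither the spread between libraries nor their depth, and no difference below was checked against replicates. A ratio is always the *Yap* mutant value over the control value. In whole-lung RNA, fewer cells of a type and less RNA per cell cannot be told apart.

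The pooled groups also differed in other respects. *Yap1* itself was at 76.1 FPKM in control lungs and 65.6 FPKM in the mutants, a value that includes the mesenchyme. The loci of all 17 cardiac muscle markers were higher in *Yap* mutant lungs, and their summed level was 133.2 FPKM in control lungs against 977.3 FPKM in *Yap* mutant lungs. The median log2 ratio of 30 lung epithelium markers was -0.54. The Y-linked *Ddx3y* was at 0.0163 FPKM in control lungs and 10.2 FPKM in the mutants, and *Xist*, the RNA of the inactive X, was at 97.0 and 50.4 FPKM, so the sexes of the pooled embryos differed between the genotypes. The part of these differences in the results below was not tested.

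*Calca* and *Calcb* lie side by side on chromosome 7 and share much of their sequence. *Calca* makes calcitonin or alpha-CGRP by alternative splicing, and *Calcb* makes beta-CGRP. Between the CGRP-coding sequence of *Calca*, of 387 bases, and a *Calcb* coding sequence of 393 bases in the GENCODE annotation of GRCm38, 85.4% of 384 aligned bases were identical. The most similar stretch of 120 bases, which encodes most of the mature CGRP peptide, is shown because the values of both genes depend on telling reads from it apart. Capitals mark the 5 bases that differ, and each stretch crosses an exon junction (*Calca*, minus strand, chr7:114632481-114634468, and *Calcb*, plus strand, chr7:114720214-114722093, introns included).
Calca: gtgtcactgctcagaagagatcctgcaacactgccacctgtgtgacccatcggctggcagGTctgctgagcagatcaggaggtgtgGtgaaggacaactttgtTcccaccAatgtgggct
Calcb: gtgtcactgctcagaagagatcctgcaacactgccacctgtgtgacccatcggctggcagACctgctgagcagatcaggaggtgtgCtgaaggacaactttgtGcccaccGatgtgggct
The longest run that their coding transcripts shared without a difference was 61 bases. Fragments that fall wholly within such runs fit both genes, and how the authors' pipeline split them was not tested.

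The CGRP genes differed between the genotypes in opposite directions. *Calca* (chromosome 7, 114631478 to 114636357) was at 1.29 FPKM in control lungs and 3.88 FPKM in the mutants, a log2 ratio of 1.59 or a level 3.01 times as high. *Calcb* (chromosome 7, 114718639 to 114723365) was at 2.67 FPKM in control lungs and 0.291 FPKM in the mutants, a log2 ratio of -3.20 or a level 9.18 times lower. In control lungs *Calcb* was the higher of the pair, at 2.07 times *Calca*, and in *Yap* mutant lungs *Calca* was the higher, at 13.3 times *Calcb*. The sum of both was 3.96 FPKM in control lungs and 4.18 FPKM in the mutants, of which *Calca* made up 32.6% and 93.0%. The order of the pair within each group does not depend on how the groups were scaled against each other.

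**Figure D1:**
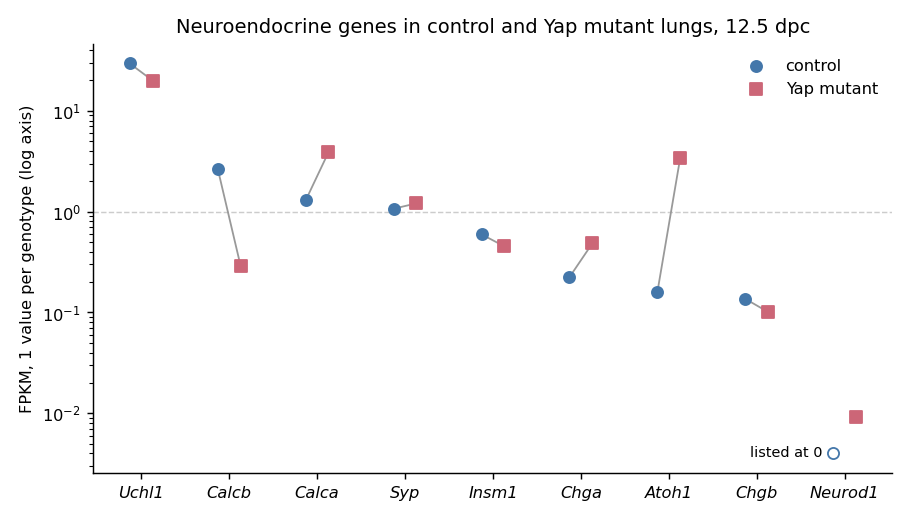
FPKM of each gene (log axis, 1 pooled value per genotype, no error bars) in control (circles) and *Yap* mutant lungs (squares), ordered by the control value, with a dashed line at 1 FPKM. *Calca* and *Atoh1* end above 3 FPKM in *Yap* mutant lungs, *Calcb* lies at 0.291 FPKM there, and *Neurod1*, listed at 0 in control lungs, is drawn there as an open circle at the foot of the axis.

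*Atoh1* (chromosome 6, 64729146 to 64731235) encodes a proneural basic helix-loop-helix factor that specifies hair cells of the inner ear, Merkel cells of the skin and secretory cells of the gut. It was at 0.160 FPKM in control lungs and 3.43 FPKM in the mutants, a log2 ratio of 4.43. Its control value lies where ratios scatter widely, and adding 1 FPKM to both values before the ratio brought the log2 ratio to 1.93. Among the 12701 loci with an average of 1 FPKM or more over both groups and values above 0, 11 had a larger log2 ratio than *Atoh1* and 139 had a larger one than *Calca*. *Calcb* was exceeded by 7 loci in the other direction.

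*Uchl1* (chromosome 5, 66676121 to 66687234) encodes a ubiquitin hydrolase that is abundant in neurons and neuroendocrine cells. It had the highest level of the 9 genes, with 29.5 FPKM in control lungs and 20.0 FPKM in the mutants, a log2 ratio of -0.56, close to the median of the lung epithelium markers. *Syp* (chromosome X, 7638580 to 7653256), which encodes the vesicle membrane protein synaptophysin, was at 1.07 FPKM in control lungs and 1.21 FPKM in the mutants, a log2 ratio of 0.18. It stayed well under a 2-fold difference.

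The other 4 genes were below 1 FPKM in both groups. *Insm1* (chromosome 2, 146221997 to 146225018), which encodes a zinc-finger repressor needed for neuroendocrine differentiation, was at 0.596 FPKM in control lungs and 0.453 FPKM in the mutants. *Chga* (chromosome 12, 102554969 to 102565027), the gene of chromogranin A, was at 0.224 and 0.484 FPKM, a log2 ratio of 1.11. *Chgb* (chromosome 2, 132781278 to 132795072), the gene of chromogranin B, was at 0.136 and 0.101 FPKM. The sign for *Chgb* changed relative to the lung epithelium median, and both chromogranin genes were so low that the precision of their ratios is unknown. *Neurod1* (chromosome 2, 79452641 to 79456636), a proneural factor gene, was listed at 0 in control lungs and at 0.00919 FPKM in *Yap* mutant lungs. The label of the group therefore rests on few measured markers at this stage, since the granule and transcription factor genes that define the cell type were near the lower end of the table.

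Of the 5 genes with an average of 1 FPKM or more, *Calca* and *Atoh1* were at least 2-fold higher in *Yap* mutant lungs, *Calcb* was at least 2-fold lower, and 2 were within 2-fold. Over all 12701 loci of that level, 2.17% were at least 2-fold higher and 1.34% at least 2-fold lower. Ratios vary more at low levels, and among the 3164 loci with a mean of 1 to 5 FPKM, where 4 of the 5 genes lie, the shares were 5.75% and 3.48%. Because the genes were chosen on this contrast, nothing is read from their counts. *Chga*, the 1 gene below 1 FPKM past 2-fold, belongs to a range of 0.1 to 1 FPKM in which 15.1% of 3789 loci were at least 2-fold higher and 8.66% at least 2-fold lower. Over all 18248 loci above 0 in both groups, at any level, these shares were 6.93% and 4.4%. The median log2 ratio of the 5 genes was 0.18, and that of all loci with the same minimum was -0.01. *Atoh1* passed this minimum through the *Yap* mutant value alone and *Calcb* through the control value alone.

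**Figure D2:**
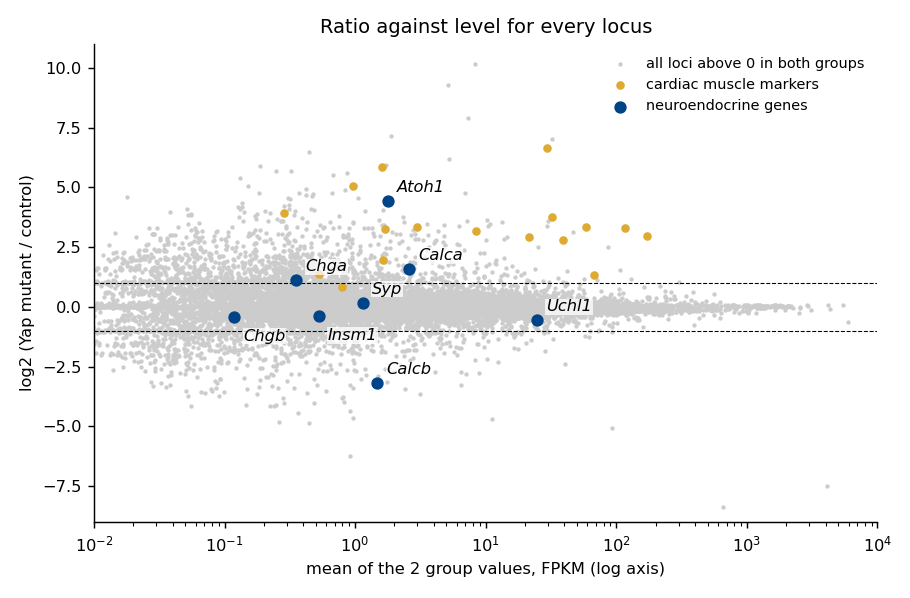
Log2 ratio of *Yap* mutant over control against the mean of both group values (FPKM, log axis), with 1 grey point per locus above 0 in both groups and a mean of at least 0.01 FPKM, cardiac muscle markers in yellow and the neuroendocrine genes in blue. Dashed lines mark 2-fold differences, and *Atoh1* at 4.43, *Calca* at 1.59 and *Calcb* at -3.20 lie outside them among loci of 1 to 5 FPKM, where the grey points spread more than at high levels.

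The loci around the CGRP genes were examined after their values were seen. The gap between *Calca* and *Calcb* is 82.3 kb. *Insc*, which encodes an adaptor of spindle orientation and is the next locus beyond *Calcb* (chromosome 7, 114743706 to 114850380), was at 2.01 FPKM in control lungs and 0.668 FPKM in the mutants, a log2 ratio of -1.59. On the *Calca* side, *Pde3b* had a log2 ratio of -0.12, *Psma1* one of -0.07 and *Copb1* one of -0.03, all from levels above 10 FPKM, and *Cyp2r1* had one of -0.03 from 0.687 FPKM in control lungs. So *Calcb* and *Insc* were lower, *Calca* was higher, and the loci before *Calca* were close to equal, apart from *4933406I18Rik*, which was below 0.1 FPKM in both groups. The next locus after *Insc*, *A730082K24Rik*, was listed at 0 in both. Around *Atoh1*, *Smarcad1* had a log2 ratio of -0.02 with 29.7 FPKM in *Yap* mutant lungs.

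**Figure D3:**
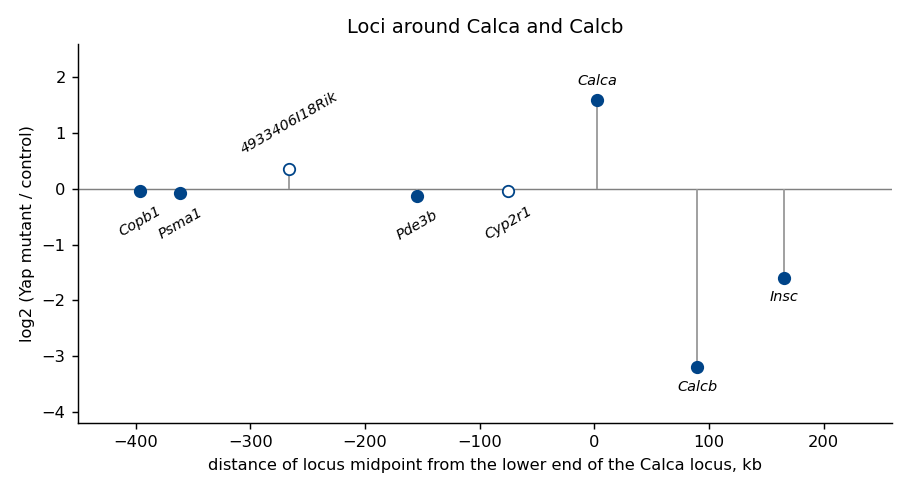
Log2 ratio of *Yap* mutant over control for the loci around *Calca* and *Calcb*, placed by the distance of each locus' midpoint from the lower end of the *Calca* locus (kb), with open circles for a mean below 1 FPKM. *Calca* stands at 1.59, *Calcb* at -3.20 and *Insc* at -1.59, while the named loci on the left lie near 0.

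The sequences just upstream of *Calca* and *Atoh1* are shown because these are the genes with higher values in *Yap* mutant lungs. RefSeq promoter sequences of GRCm38.p6 were matched for 7 of the 9 genes, with no entry used for *Calcb* and *Insm1*. Each run below is the 250 bases before the annotated start, and capitals mark every match on either strand to GGAATG, the core TEAD site, to TGACG, the core of a cyclic AMP response element, or to the E-box CANNTG. *Calca* is on the minus strand (chr7:114636358-114636607) and *Atoh1* on the plus strand (chr6:64728875-64729124).
Calca: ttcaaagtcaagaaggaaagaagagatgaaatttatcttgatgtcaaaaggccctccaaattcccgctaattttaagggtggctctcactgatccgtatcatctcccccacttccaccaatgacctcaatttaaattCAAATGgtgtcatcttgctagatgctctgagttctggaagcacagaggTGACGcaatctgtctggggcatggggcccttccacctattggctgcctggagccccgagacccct
Atoh1: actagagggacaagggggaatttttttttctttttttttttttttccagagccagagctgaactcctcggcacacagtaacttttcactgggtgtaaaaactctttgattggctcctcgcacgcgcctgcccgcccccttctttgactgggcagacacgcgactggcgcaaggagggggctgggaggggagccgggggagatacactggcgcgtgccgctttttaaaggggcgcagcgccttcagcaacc
*Calca* held 1 E-box, which began 113 bases before the start, and 1 TGACG match, at 65 bases. *Atoh1* held none of these letters. GGAATG was found upstream of 1 of the 7 genes, *Syp*, at 88 bases before the start, and in 12.6% of 32851 RefSeq promoters. TGACG was found for *Calca*, *Chga* and *Chgb*, 3 of the 7, and in 17.8% of all promoters. The longer element TGACGTCA, which contains TGACG, was found for *Chgb* only among the 7 and in 1.55% of all promoters. An E-box was found for 4 of the 7 and in 66.2% of all promoters. These matches describe letters in a short window and say nothing of binding.

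Several genes of the calcitonin family and its receptors had higher values in *Yap* mutant lungs. CGRP acts through a receptor built from the product of *Calcrl* and that of *Ramp1*, and adrenomedullin, encoded by *Adm*, uses the *Calcrl* product with that of *Ramp2* or *Ramp3*. Of 9 genes other than *Calca* and *Calcb*, 6 averaged 1 FPKM or more, of which 4 were at least 2-fold higher, 0 at least 2-fold lower and 2 within 2-fold. *Ramp1*, *Adm* and *Calcr*, 3 of the 4, passed this minimum only through their *Yap* mutant value, so the count supports nothing about the family. *Calcrl* was at 8.96 FPKM in control lungs and 25.5 FPKM in the mutants, a log2 ratio of 1.51. *Ramp1* was at 0.694 and 2.68 FPKM, a log2 ratio of 1.95. Both values were thus higher in *Yap* mutant lungs, that of *Ramp1* from below 1 FPKM in control lungs. *Crcp*, also in this list, was at 16.8 and 15.2 FPKM, a log2 ratio of -0.15. *Adm* had a log2 ratio of 2.18 and the calcitonin receptor gene *Calcr* one of 1.73, both from below 1 FPKM in control lungs. *Ramp2*, the most abundant gene of the list, was at 58.5 and 51.5 FPKM. Several of these genes are active in heart as well, and 13 of 13 cardiac muscle loci with an average of 1 FPKM or more were at least 2-fold higher in the same comparison, so their part in these values was not tested.

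Among 17 transcription factor genes of neuroendocrine cells, 7 loci had an average of 1 FPKM or more and *Atoh1* was the only 1 of them past 2-fold, with a list median of -0.11. *Nkx2-1*, the lung epithelial identity factor gene, was at 61.9 FPKM in control lungs and 35.9 FPKM in the mutants, a log2 ratio of -0.79. So *Nkx2-1* was lower where *Atoh1* was higher. Of the 17 proneural bHLH genes, 14 had a mean below 1 FPKM, and 5 were listed at 0 in both groups. *Atoh8*, the most abundant of that family, had a log2 ratio of -0.17. *Gfi1*, which is a known partner of *Atoh1* in hair cells, was at 0.0540 FPKM in control lungs and 0.289 FPKM in the mutants.

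The Notch ligands, receptors and targets, which hold back the neuroendocrine fate, differed by less than 2-fold where they averaged 1 FPKM or more. Of 17 genes, 15 loci had such an average and 0 of them reached 2-fold in either direction, with a median log2 ratio of -0.03. Over all such loci only 2.17% were at least 2-fold higher and 1.34% at least 2-fold lower, so the count is not particular to these genes. Below that level, *Dll3* was at 0.507 and 1.02 FPKM, a log2 ratio of 1.01. *Hes5* was at 0.142 and 0.290 FPKM, a log2 ratio of 1.03. *Notch3*, the most abundant, was at 32.0 and 31.3 FPKM. *Hes1*, a main Notch target, was at 30.5 FPKM in control lungs and 26.4 FPKM in the mutants.

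Apart from *Pam*, the granule and vesicle genes were low or differed by less than 2-fold. In the list of granins and prohormone processing, 13 of 15 loci had a mean below 1 FPKM. The exceptions were *Cpe*, the gene of carboxypeptidase E, at 25.2 and 26.4 FPKM, and *Pam*, at 21.8 FPKM in control lungs and 62.7 FPKM in the mutants, a log2 ratio of 1.52. *Pam* encodes the enzyme that amidates peptides such as CGRP, and it is also abundant in heart atria, whose markers *Nppa* and *Myl7* had log2 ratios of 6.64 and 2.96. Among heart markers averaging 1 FPKM or more, the other log2 ratios of largest size were *Pln* with 5.86, *Myh6* with 3.78, *Nkx2-5* with 3.36, *Tnnt2* with 3.33 and *Myl4* with 3.31. The part of heart tissue in the value of *Pam* was not tested. Of 9 synaptic vesicle and exocytosis loci with an average of 1 FPKM or more, 0 reached 2-fold, with a median of 0.09. Over all loci of that level only 2.17% were at least 2-fold higher and 1.34% at least 2-fold lower, so this count is not particular to vesicle genes. *Vamp2*, a vesicle fusion gene, was at 25.7 and 26.9 FPKM.

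Among 19 genes for amines and peptides of these cells, 6 loci had an average of 1 FPKM or more and 2 of them were at least 2-fold higher. *Ddc*, which encodes the decarboxylase that makes serotonin and dopamine, was at 8.30 FPKM in control lungs and 20.7 FPKM in the mutants, a log2 ratio of 1.32. *Npy*, a neuropeptide gene, was at 0.607 and 2.81 FPKM, a log2 ratio of 2.21. *Grp*, the gene of gastrin-releasing peptide, was at 0.587 and 0.972 FPKM. In the list of other genes used as markers of these cells, 1 of 13 loci, the enolase gene *Eno2*, was at least 2-fold higher, at 1.95 and 4.22 FPKM, and *Bex2*, the most abundant, had a log2 ratio of 0.59. The ubiquitin hydrolase family of *Uchl1* had 4 loci above 1 FPKM, all within 2-fold, and *Uchl3*, the most abundant, had a log2 ratio of -0.09. Joined without the 9 genes, these 6 neuroendocrine lists, which leave out the Notch, bHLH and hydrolase lists, held 41 loci with an average of 1 FPKM or more, of which 8 (19.5%, beside 2.17% of all such loci) were at least 2-fold higher, 0 (beside 1.34%) were at least 2-fold lower and 33 were within 2-fold, with a median of 0.14. Of the 8, 4 were the calcitonin family and receptor genes above, and *Pam*, *Ddc*, *Npy* and *Eno2* were the others. *Ramp1*, *Adm*, *Calcr* and *Npy* were below 1 FPKM in control lungs and passed the minimum only through their *Yap* mutant value. The share at least 2-fold higher was 5.75% among all loci with a mean of 1 to 5 FPKM. Because the lists were written with earlier results of these data known, nothing is read from this count.

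**Figure D4:**
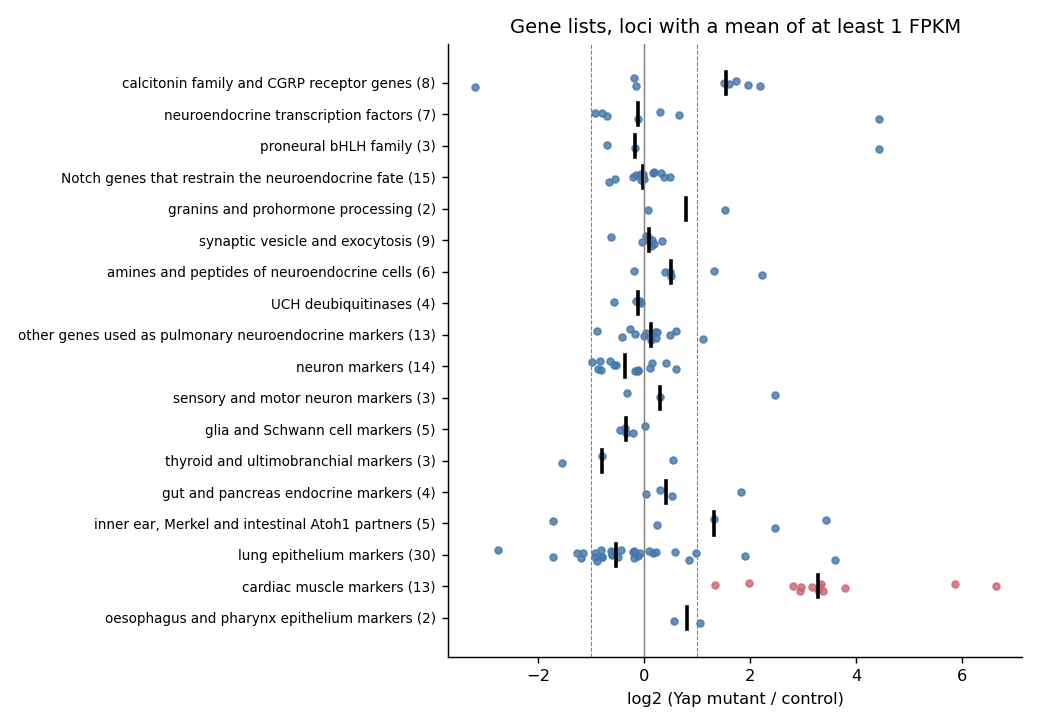
Log2 ratio of *Yap* mutant over control for each locus with an average of 1 FPKM or more (points, spread vertically only to separate them) in each gene list, with the number of loci in parentheses, black bars at list medians and dashed lines at 2-fold. The cardiac muscle list lies wholly to the right with a median of 3.27, and the Notch and vesicle lists cluster around 0.

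Cells other than neuroendocrine cells also make several of the 9 products, so their markers are given for comparison. Neurons share *Uchl1* and *Syp*. Of 14 neuron marker loci with an average of 1 FPKM or more, 0 reached 2-fold in either direction, 10 were lower and the median log2 ratio was -0.36. With 2.17% of all such loci at least 2-fold higher and 1.34% at least 2-fold lower, the count of 0 is not particular to neuron markers. *Dcx*, the most abundant neuron marker, was at 10.9 and 12.1 FPKM, and the summed level of all 23 markers was 58.3 FPKM in control lungs and 55.8 FPKM in the mutants. The sign of this median depended on the processing, since it was 0.15 over markers averaging 5 FPKM or more and 0.18 relative to the lung epithelium median. The part of neurons in the values of the 9 genes was not tested. Of 14 sensory and motor neuron markers, whose cells make CGRP, 11 had a mean below 1 FPKM. *Isl1*, the most abundant, was at 5.93 and 7.27 FPKM, and *Lhx3* was at 0.525 and 2.89 FPKM. The defining sensory markers *Trpv1* and *Scn9a* were below 0.04 FPKM in both groups. Glial markers had a median of -0.35 over 5 loci, and *Erbb3* was the most abundant, at 12.9 and 9.45 FPKM.

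Thyroid C cells make calcitonin from *Calca*. In the thyroid list, thyroglobulin, *Tg*, was at 0.127 FPKM in control lungs and 0.129 FPKM in the mutants. *Foxe1* was listed at 0 in both, and *Hhex* was at 7.08 and 10.3 FPKM. These thyroid values do not measure C cells, and the part of C cells in the values of *Calca* was not tested. *Cdh16*, also a kidney gene, was the 1 locus of that list past 2-fold, with a log2 ratio of -1.56. Among 16 gut and pancreas endocrine markers, *Neurog3*, *Ins1*, *Gip* and *Pax4* were listed at 0 in both groups. *Pdx1*, a pancreas and duodenum factor gene, was below 1 FPKM in both, at 0.0266 and 0.809 FPKM, a log2 ratio of 4.92. *Ghrl*, the ghrelin gene, was at 1.28 FPKM in control lungs and 4.52 FPKM in the mutants, a log2 ratio of 1.82, and was the 1 of 4 loci at or above 1 FPKM that was at least 2-fold higher. For cells that use *Atoh1*, the hair cell gene *Pou4f3* was listed at 0 in both groups. In that list, 3 of 5 loci averaging 1 FPKM or more were at least 2-fold higher, beside 2.17% of all such loci. *Rasd2*, at 0.283 and 3.04 FPKM, had the largest log2 ratio, 3.42, followed by *Lhx3* with 2.46 and *Rbm24* with 1.31. *Rasd2* and *Lhx3* passed the minimum of 1 FPKM only through their *Yap* mutant value, so nothing is read from the count. *Sox2*, also an airway progenitor gene, was at 9.65 and 2.91 FPKM. Oesophagus and pharynx markers had 9 of 11 loci below 1 FPKM, with *Krt14* at a log2 ratio of 1.06 and *Klf5* at 2.29 and 3.36 FPKM.

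The lung epithelium gives rise to the neuroendocrine cells, and its markers were measured here in whole-lung RNA. Of 30 such loci, 5 were at least 2-fold lower, beside 1.34% of all loci averaging 1 FPKM or more. At least 2-fold higher were 2, beside 2.17%. The list was written with earlier results of these data known, so nothing is read from these counts. *Shh* had a log2 ratio of -2.76, *Etv5* one of -1.26 and *Esrp2* one of -1.19, beside *Sox2* with -1.73. *Sftpb*, a surfactant gene, had a log2 ratio of 3.60 and *Elf5* one of 1.90. *Id2*, the most abundant of the list, was at 117.7 and 211.0 FPKM. Against the median of this list, *Uchl1* had a log2 ratio of -0.02, *Syp* one of 0.72, *Calca* one of 2.13 and *Calcb* one of -2.66.

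The loci most like the 3 most changed genes, by the distance between their pairs of log2 FPKM values among 12104 loci with a single symbol, followed different genes. Nearest to *Calca* were *Lrfn5*, *Apoa1* and *Card9*, at distances of 0.04, 0.09 and 0.17. Nearest to *Calcb* were *H2-Q2*, *Stfa1* and *Cytl1*, at 0.30, 0.33 and 0.40, and *H2-Q2* and *Stfa1* belong to families whose near-identical copies can share reads. Nearest to *Atoh1* were *Myoz2*, *Trdn* and *Fsd2*, at 0.25, 0.58 and 0.63, the first 2 of which encode proteins of striated muscle. *Myoz2* was at 0.183 FPKM in control lungs and 3.07 FPKM in the mutants, beside the 0.160 and 3.43 FPKM of *Atoh1*. With only 2 values per locus, such likeness is a match of 2 levels.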

How the data were processed

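RNA from whole lungs at 12.5 *dpc* was sequenced as 3 control and 3 *Yap* mutant libraries. Libraries of the later stage and values per library were not analysed here. The paper describes stranded paired-end libraries analyzed on the Maverix platform, and the submitters' processing notes name TopHat, Cuffdiff and the build mm10, without versions. The authors deposited a table of 24402 loci and a table of 2395 loci they list as changed, each with 1 FPKM value per genotype. The deposited values were read as FPKM from the Cuffdiff layout, since the unit is not written in the tables. The fold changes and p-values of the authors' own comparison, also in these tables, were not used.

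Loci were found by symbol, after splitting symbols at commas, and 351 loci hold several symbols. Locus starts were raised by 1 to count from 1. All 9 loci overlapped their RefSeq gene on GRCm38. Log2 ratios were computed without a pseudocount for loci above 0 in both groups, and lists were described over loci averaging 1 FPKM or more. The members, the 18 gene lists and the naming rule were chosen with earlier results of these data known. By that rule the text names every member, the most abundant gene of each list, up to 6 genes of each list past 2-fold, and the 3 nearest loci of *Calca*, *Calcb* and *Atoh1*. A few genes of these lists and regions are not reported here. Other genes named were chosen after their values were seen, as were the neighboring loci and the motifs. No test across libraries was made here, since values per library were not used, and no sample was left out or imputed. The counting was checked on simulated data with 200 changed loci. Transcripts were aligned with Biopython 1.88, and other steps used Python 3.11.15, numpy 2.4.6, pandas 2.3.3 and matplotlib 3.10.9. The alternatives were other minimum levels, pseudocounts of 0.1 and 1 FPKM, centred ratios, ratios relative to the epithelium median, a 1.5-fold threshold and the values of the table of changed loci.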

Additional observations from a re-analysis of the deposited data

How the results depend on the processing

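Precision could not be assessed, because the depth and the spread of the libraries are unknown, and leaving out a library was not possible with pooled values. No paired analysis was possible because the tables hold 1 pooled value per genotype and no column per replicate. With a mean of at least 5 FPKM, *Uchl1* was the 1 gene left, so 0 genes were at least 2-fold higher, 0 were at least 2-fold lower and the median log2 ratio was -0.56. At that minimum the median of the calcitonin family and receptor list turned from 1.55 to -0.15, and that of the list of *Atoh1* partners turned from 1.31 to -0.21. Smaller medians also changed sign. That of the neuron list went from -0.36 to 0.15 at that minimum, and with no minimum that of the sensory and motor neuron list went from 0.29 to -0.19 and that of the thyroid list from -0.79 to 0.0019. Relative to the epithelium median, the medians of the transcription factor, bHLH, Notch, hydrolase, neuron and glia lists turned positive, between 0.18 and 0.51, as did *Chgb* at 0.11 and *Insm1* at 0.14. With no minimum, the median of the 8 genes above 0 in both groups was -0.11, and 3 genes were at least 2-fold higher, *Chga* being added. Relative to the median of the lung epithelium list, the median of the genes was 0.72. A pseudocount of 1 FPKM gave log2 ratios of 1.09 for *Calca*, -1.51 for *Calcb* and 1.93 for *Atoh1*, so their directions and their side of 2-fold were kept, as they were with a pseudocount of 0.1 FPKM, with centring on all loci, relative to the epithelium median and with the values of the table of changed loci. *Chga* was past 2-fold without a pseudocount and at 0.85 and 0.28 on the log2 scale with 0.1 and 1 FPKM. Among the counts and medians of the lists and the ratios of single genes, 340 values under an alternative moved by less than 0.1 on the log2 scale or by at most 1.5 times, 106 moved by more, some of them across 0 as given above, and the medians of 2 lists turned from over 2-fold higher to below 0.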
